A study of Mus musculus with 24 samples.

Results

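The genes followed here are 8 genes of dopamine and adrenergic signalling in the mouse kidney, described over strain and sex: *Ddc*, *Maoa*, *Drd1*, *Adra1a*, *Adra1b*, *Adra2a*, *Adra2b* and *Adrb1*. Members were found by their symbol in the annotation of the array, with the brightest probe set of a gene kept where it had several. Of the 8 genes, 4 had a probe set that carried their symbol alone, namely *Ddc*, *Maoa*, *Drd1* and *Adra1b*, each with 1 probe set, out of 18782 genes with a probe set of their own and 28853 probe sets in all. *Adra1a*, *Adra2a*, *Adra2b* and *Adrb1* had none under that rule and were not analysed here. The study asked which kidney genes differ between the Schlager strains, BPH/2J, bred for high blood pressure, and BPN/3J, bred alongside it with normal pressure, and whether males and females differ alike. There were 4 groups of 6 mice, all 12 weeks old: BPH/2J females, BPN/3J females, BPH/2J males and BPN/3J males. Each mouse gave 1 Affymetrix Mouse Gene 1.0 ST array from kidney RNA, taken in the daily inactive period. Blood pressure was not recorded in these mice, so strain stands for hypertension here, and the strains are separate inbred lines that differ in more than blood pressure.

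In the kidney, dopamine is made largely within the proximal tubule itself. The tubule takes up L-DOPA from the filtrate, decarboxylates it, and releases dopamine that acts on receptors of the same and neighbouring cells to lower sodium reabsorption. Noradrenaline arrives instead from sympathetic nerve endings and acts on adrenoceptors of vessels, tubules and renin cells, where it favours constriction, sodium retention and renin release. Both amines are cleared by uptake and by oxidation, methylation or sulphation.

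Expression is given as RMA values in log2 units, where a difference of 1 is a doubling. A probe set's level was compared between groups, and levels of named genes were not compared with each other. Where a level is called high, dim or under the array medians, it is set beside all probe sets. Array medians lay between 6.89 and 6.97, and over all probe sets any pair of arrays within a group had an r of 0.981 to 0.997. A difference was called at an adjusted p under 0.05 (limma, Benjamini-Hochberg over all probe sets), and the 6 mice per group limit the precision. Kidney markers were high on all arrays: the mean of 9 tubule and glomerulus genes was 11.99 to 12.34 over the 24 arrays. Transcripts of neighbouring organs varied within groups. For 14 hepatocyte genes the mean reached 12.14 and 12.37 in arrays 2 and 5 of the BPN/3J females, against 6.88 to 7.65 in the other 4 arrays of that group. It was 10.33 in BPH/2J male array 1, 10.24 in BPH/2J female array 3 and up to 9.56 in BPN/3J males. For 8 adrenal cortex genes the mean spanned 5.37 to 10.23 over all arrays. For 7 adipocyte genes the mean was 8.501 to 9.505 in BPH/2J females, against 7.54 to 8.38 in BPN/3J females (difference 1.08, exact permutation p = 0.00216, two-sided), with 4 of the 7 called higher. In males the adipocyte difference between the strains was 0.12 (exact permutation p = 0.58), and in BPH/2J mice it was 0.67 between females and males (exact permutation p = 0.00649). For 6 macrophage and leukocyte genes the mean was lower by 0.22 in BPH/2J than in BPN/3J males (exact permutation p = 0.013). The part of the adipocyte and macrophage lists in the differences given next was not tested.

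The promoters of *Ddc* and *Maoa* are printed because these genes carried the differences described next, and they show how unlike the annotated start sites are. All sequences come from RefSeq (build GRCm38.p6), are the 250 bases before an annotated start, run 5′ to 3′ on the strand of the gene, and were found for all 4 measured members, as 7 windows. Capitals mark a motif match on either strand. Of *Ddc*, which lies on the minus strand of chromosome 11 (11814101 to 11898144), window 1 (chr11:11898145-11898394) precedes the upstream start and window 2 (chr11:11890409-11890658) a start inside the gene. Capitals mark a TATA box (TATAAA, here as TTTATA) in window 1 and a CCAAT box (here as ATTGG) in window 2. *Maoa* lies on the plus strand of chromosome X (16619698 to 16687812), with its window at chrX:16619448-16619697 and a GC box (GGGCGG, here as CCGCCC) in capitals.
Ddc window 1: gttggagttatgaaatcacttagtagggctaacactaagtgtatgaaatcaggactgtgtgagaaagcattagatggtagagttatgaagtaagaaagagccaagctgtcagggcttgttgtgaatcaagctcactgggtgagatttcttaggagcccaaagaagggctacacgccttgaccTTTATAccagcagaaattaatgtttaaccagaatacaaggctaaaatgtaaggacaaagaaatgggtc
Ddc window 2: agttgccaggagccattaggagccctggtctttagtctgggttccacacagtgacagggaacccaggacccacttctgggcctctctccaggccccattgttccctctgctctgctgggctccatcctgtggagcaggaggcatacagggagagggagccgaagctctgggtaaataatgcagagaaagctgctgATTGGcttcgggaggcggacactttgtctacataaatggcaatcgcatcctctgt
Maoa window: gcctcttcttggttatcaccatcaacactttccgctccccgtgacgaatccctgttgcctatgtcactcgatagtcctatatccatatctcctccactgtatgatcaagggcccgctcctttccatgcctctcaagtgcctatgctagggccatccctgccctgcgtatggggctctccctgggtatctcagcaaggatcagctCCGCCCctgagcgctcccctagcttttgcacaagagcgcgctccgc
The first capital letter stands 68 bases before the start in *Ddc* window 1, 55 bases before it in *Ddc* window 2 and 46 bases before it in the *Maoa* window. *Ddc* window 1 is A and T rich, with 40.8% G and C, while *Ddc* window 2 has 56.0% and the *Maoa* window 56.8%. The same TATA letters occur in 12.4% of 32817 RefSeq windows of this length, the CCAAT letters in 33.8% and the GC box letters in 32.7%. The half-site letters of the androgen and glucocorticoid receptors (AGAACA, in 16.1% of windows) and of HNF1 (GTTAAT, in 6.44%) were not found on either strand of these 3 windows. A match is a run of letters and not a mapped site, and which start the transcripts measured here used was not determined.

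*Ddc* encodes aromatic L-amino acid decarboxylase, the enzyme that makes dopamine from L-DOPA, and it is best known in the kidney from the proximal tubule. It was the member that differed most between groups: lower in hypertensive than in normotensive females, and higher in females than in males of both strains. In females its level was 11.14 to 11.27 in BPH/2J mice, with a median of 11.24, against 11.96 to 12.17 in BPN/3J mice, with a median of 12.01. Every BPH/2J female was below every BPN/3J female. The mean fell by 0.82 on the log2 scale in BPH/2J females (standard error 0.0443, 95% interval -0.92 to -0.72, adjusted p = 3.95e-08), a 1.77-fold lower level. Means were 11.22 ± 0.044 in BPH/2J females and 12.04 ± 0.0885 in BPN/3J females (SD, n = 6 each). *Ddc* and *Maoa* were the 2 members called between the strains in females, against 14.5% of all probe sets, and groups that do not overlap, as those of *Ddc*, were found for 9.34% of probe sets. At the stricter Bonferroni threshold of the study's methods, *Ddc* still passed in females (Bonferroni-adjusted p = 4.27e-06), as did 2.36% of probe sets.

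In males the strains were closer in *Ddc*. The level was 10.44 to 10.77 in BPH/2J males, with a median of 10.64, against 10.65 to 11.11 in BPN/3J males, with a median of 10.83, and the groups overlapped. The mean difference, BPH/2J minus BPN/3J, was -0.23 (standard error 0.0837, 95% interval -0.41 to -0.05, adjusted p = 0.0851) and was not called. It was called when all 24 arrays were fitted together (adjusted p = 0.0196), with the hepatocyte and adrenal cortex means as covariates (-0.23, adjusted p = 0.0267) and without BPN/3J male array 6 (-0.27, adjusted p = 0.0486). The strain difference in females minus that in males was -0.59 (standard error 0.0968, 95% interval -0.79 to -0.39, adjusted p = 0.000848). *Ddc* was the 1 member with a called strain-by-sex interaction, against 1.76% of all probe sets. It did not pass the Bonferroni threshold (Bonferroni-adjusted p = 0.102), which 0.36% of probe sets passed.

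Between the sexes, *Ddc* was 1.52-fold higher in BPH/2J females than in BPH/2J males (log2 difference 0.60, standard error 0.0549, adjusted p = 2.98e-06). In BPN/3J mice it was 2.28-fold higher in females than in males (1.19, standard error 0.0777, adjusted p = 1.26e-07). As for 18.2% of all probe sets in BPH/2J and 17.6% in BPN/3J, the sexes did not overlap in *Ddc*. No female array of a strain reached as low as a male array of that strain. The order of the 4 group means was BPN/3J females, BPH/2J females, BPN/3J males and BPH/2J males, from high to low. Only the 2 male groups of that order overlapped. *Ddc* and *Maoa* were the 2 members called between the sexes in each strain, against 28.9% of probe sets in BPH/2J and 29.2% in BPN/3J. Both passed the Bonferroni threshold as well, which 4.72% of probe sets passed in BPH/2J and 4.74% in BPN/3J. With the methods' t-test at that threshold 1 of the 2 passed in each strain, as *Ddc* in BPH/2J (Bonferroni-adjusted p = 0.753) and *Maoa* in BPN/3J (Bonferroni-adjusted p = 0.158) did not.

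The adrenal gland also expresses *Ddc*, so its level is given beside adrenal transcripts. The difference between the strains in the adrenal cortex list was not called (0.17 in females, exact permutation p = 0.848, and -0.16 in males, exact permutation p = 0.838, two-sided). Between the sexes the list mean lay on the same side as *Ddc*, higher in females by 1.79 in BPH/2J (exact permutation p = 0.115) and by 1.46 in BPN/3J (exact permutation p = 0.238). The adrenal medulla mean was higher in females by 0.72 in BPH/2J (exact permutation p = 0.147) and by 0.53 in BPN/3J (exact permutation p = 0.268), and none of these 4 sex differences passed its test. Of the 7 medulla genes measured, 0 were called higher and 1 lower in females of each strain. Of all probe sets, 13.4% were called lower in BPH/2J females and 14.8% in BPN/3J females. The 1 gene called lower was *Slc18a1*, which ran against the direction of the list mean. The adrenal cortex mean was low, at 6.07, 5.39, 5.46 and 5.37, on arrays 5 and 6 of the BPH/2J females and 3 and 6 of the BPN/3J females. Other female arrays reached 9.85 in BPH/2J and 10.23 in BPN/3J on that list. On those 4 arrays *Ddc* was 11.14 and 11.27 in the BPH/2J females, against 12.03 and 12.17 in the BPN/3J females, and all 4 values lay above the highest male array, at 11.11. With the hepatocyte and adrenal cortex means as covariates the female strain difference was -0.81 (adjusted p = 4.35e-07) and the interaction -0.58 (adjusted p = 0.000786). The sex differences with these covariates were 0.61 in BPH/2J (adjusted p = 9.22e-05) and 1.24 in BPN/3J (adjusted p = 5.75e-07). In RNA of kidney tissue, fewer cells of a type and less RNA per cell cannot be told apart. The mean of 10 proximal tubule genes differed by 0.0127 between BPH/2J and BPN/3J females (exact permutation p = 0.617), with 1 of the 10 higher and 1 lower. In males it was lower by 0.0495 in BPH/2J than in BPN/3J (exact permutation p = 0.0368, or 0.105 with Benjamini-Hochberg adjustment over all list tests). Between the sexes the list mean was lower in females by 0.67 in BPH/2J and 0.74 in BPN/3J mice (exact permutation p = 0.00216 each, the smallest that 924 regroupings can give). Of the 10 genes, 3 were called higher and 4 lower in BPH/2J females, and 4 higher and 3 lower in BPN/3J females, and the median gene differed by -0.07 in BPH/2J and -0.05 in BPN/3J. *Slc7a13*, a transporter long known as higher in male mouse kidney, carried most of the shift of the mean, at -6.05 in BPH/2J and -6.91 in BPN/3J.

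**Figure D1:**
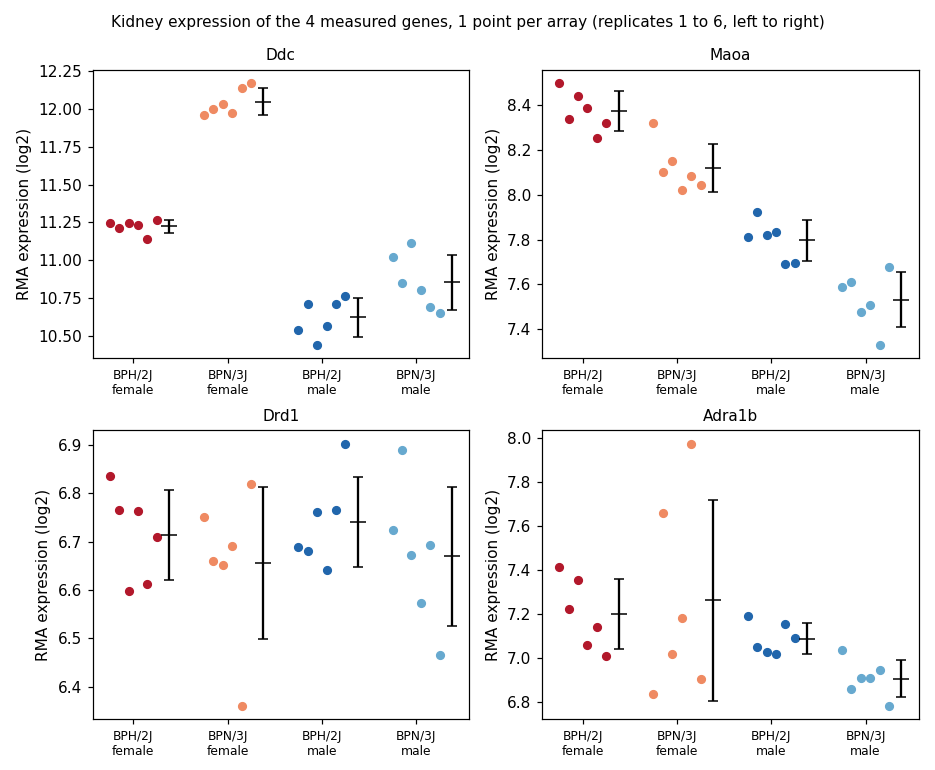
Level of each measured member on the 24 arrays (RMA expression, log2, 1 panel per gene), by group along the x axis, BPH/2J left of BPN/3J in each sex. Points are mice and the line with its bar is the mean ± SD of 6 mice. *Ddc* separates the female groups at 11.14 to 11.27 in BPH/2J and 11.96 to 12.17 in BPN/3J, and 2 of the BPN/3J females stand apart in *Adra1b*, at 7.66 and 7.98.

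*Maoa* encodes monoamine oxidase A, the mitochondrial enzyme that oxidises noradrenaline, dopamine and serotonin. It was higher in BPH/2J than in BPN/3J mice of both sexes, by a similar amount, and higher in females than in males of both strains. In females the level was 8.25 to 8.498 in BPH/2J mice, with a median of 8.36, against 8.02 to 8.32 in BPN/3J mice, with a median of 8.09. The groups overlapped because 1 BPN/3J female, array 1, reached 8.32. The next highest BPN/3J female was at 8.15, below every BPH/2J female. The mean rose by 0.25 in BPH/2J females (standard error 0.0569, adjusted p = 0.00885), a 1.19-fold higher level.

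In males *Maoa* was 7.69 to 7.92 in BPH/2J mice, with a median of 7.82, against 7.33 to 7.68 in BPN/3J mice, with a median of 7.55. Every BPH/2J male was above every BPN/3J male, as for 9.65% of all probe sets. The rise in BPH/2J males was 0.26 (standard error 0.061, adjusted p = 0.00924), or 1.201-fold. *Maoa* and *Adra1b* were the 2 members called between the strains in males, against 15.2% of all probe sets, and neither passed the Bonferroni threshold, which 2.56% passed. The strain differences of the sexes in *Maoa* differed by -0.0125 (95% interval -0.19 to 0.16, adjusted p = 0.976).

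The sex difference in *Maoa* was about as large in one strain as in the other. Females were 1.49-fold higher than males in BPH/2J (0.58, standard error 0.0527, adjusted p = 3.02e-06) and 1.503-fold higher than males in BPN/3J (0.59, standard error 0.0648, adjusted p = 1.62e-05). Female and male arrays did not overlap in either strain, which was so for 18.2% of probe sets in BPH/2J and 17.6% in BPN/3J. The group means ran BPH/2J females at 8.37 ± 0.0891, BPN/3J females at 8.12 ± 0.108, BPH/2J males at 7.80 ± 0.0893 and BPN/3J males at 7.53 ± 0.122 (SD, n = 6 each). Only the 2 female groups of that order overlapped. RNA of *Ddc* and RNA of *Maoa* were both higher in females, while their strain differences in females had opposite signs. Enzyme protein and activity were not measured here.

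*Drd1* encodes the D1 dopamine receptor, which couples to the stimulatory G protein and raises cyclic AMP, and through which tubular dopamine promotes sodium excretion. Its group means lay under the array medians, and no comparison was called. In females it was 6.60 to 6.83 in BPH/2J mice, against 6.36 to 6.82 in BPN/3J mice. In males it was 6.64 to 6.90 in BPH/2J mice, against 6.47 to 6.89 in BPN/3J mice. All 4 groups overlapped, with means of 6.71 ± 0.0932 in BPH/2J females, 6.66 ± 0.158 in BPN/3J females, 6.74 ± 0.0935 in BPH/2J males and 6.67 ± 0.144 in BPN/3J males (SD, n = 6 each). The strain differences were 0.06 in females (95% interval -0.10 to 0.21, adjusted p = 0.676) and 0.07 in males (95% interval -0.08 to 0.22, adjusted p = 0.577). The sex differences, female minus male, were -0.03 in BPH/2J (95% interval -0.14 to 0.09, adjusted p = 0.783) and -0.01 in BPN/3J (95% interval -0.19 to 0.16, adjusted p = 0.919). The strain intervals still hold differences of up to 0.21 in females and 0.22 in males.

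*Adra1b* encodes the α1B-adrenoceptor, which couples to the Gq protein and mediates responses to noradrenaline in vessels and in liver. In males it was higher in BPH/2J than in BPN/3J mice. The level was 7.02 to 7.19 in BPH/2J males, with a median of 7.07, against 6.78 to 7.04 in BPN/3J males, with a median of 6.91. The groups overlapped where BPH/2J male arrays 3 and 4, at 7.03 and 7.02, fell below the highest BPN/3J male, at 7.04. The rise was 0.18 (standard error 0.0485, 95% interval 0.08 to 0.29, adjusted p = 0.0211), or 1.13-fold. It lost its call without BPH/2J male array 5 (0.17, adjusted p = 0.0508) and when all 24 arrays shared 1 estimate of spread (0.18, adjusted p = 0.439). The highest BPH/2J male, array 1 at 7.19, had a hepatocyte mean of 10.33.

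Among females the spread of *Adra1b* in 1 group exceeded any difference between groups. The 6 BPH/2J females lay between 7.01 and 7.41, with a mean of 7.20 ± 0.16 (SD, n = 6). Of the BPN/3J females, arrays 2 and 5 were at 7.66 and 7.98 and the other 4 were at 6.84, 7.02, 7.18 and 6.91, for a mean of 7.26 ± 0.456 (SD, n = 6). Arrays 2 and 5 are those with hepatocyte means of 12.14 and 12.37. Whether liver RNA takes part in their *Adra1b* values was not tested. BPH/2J female array 3, with a hepatocyte mean of 10.24 and *Adra1b* at 7.36, was kept in both fits of the female strain difference. That difference was -0.06 with BPN/3J female arrays 2 and 5 (standard error 0.177, adjusted p = 0.877) and 0.21 without them (standard error 0.0925, adjusted p = 0.191), and neither was called. The female-minus-male difference in BPN/3J was 0.36 with them (adjusted p = 0.14) and 0.08 without them (adjusted p = 0.479). In BPH/2J the female-minus-male difference was 0.11 (95% interval -0.04 to 0.26, adjusted p = 0.267). The strain-by-sex interaction was -0.24 (95% interval -0.64 to 0.15, adjusted p = 0.671), and 0.03 without arrays 2 and 5 (adjusted p = 0.95).

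**Figure D2:**
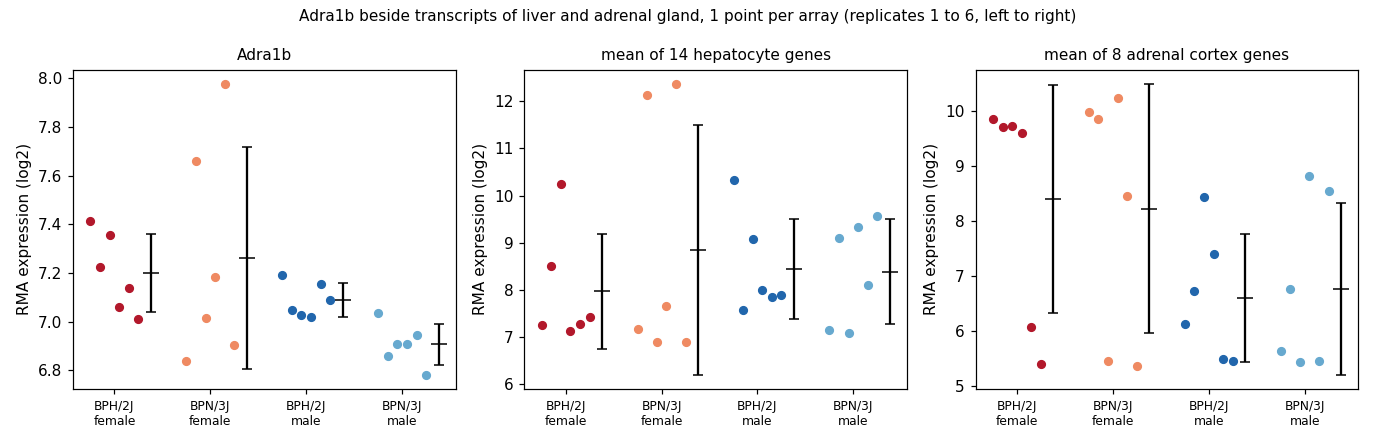
Level of *Adra1b* and the means of 14 hepatocyte genes and 8 adrenal cortex genes (y axes, RMA expression, log2, 1 panel each) by group along the x axis, with 1 point per array in the order of replicates 1 to 6 and the mean ± SD beside them. BPN/3J female arrays 2 and 5 stand at 7.66 and 7.98 in *Adra1b* and at 12.14 and 12.37 in the hepatocyte mean, and all other arrays lie at 7.41 or less in *Adra1b*.

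Leaving out the same 2 arrays kept the calls of *Ddc* and *Maoa*. Without them the female strain difference of *Ddc* was -0.81 (adjusted p = 1.22e-06) and its interaction -0.58 (adjusted p = 0.00368). The female strain difference of *Maoa* was then 0.24 (adjusted p = 0.0472, against 0.00885 with them). That of *Drd1* changed sign, from 0.06 to -0.01, and was called in neither case. Vascular smooth muscle and pericyte genes, the cells on which much of the α1-adrenergic response of the kidney rests, moved with strain and with sex. In females their list mean was 9.24 to 9.37 in BPH/2J, against 8.87 to 9.13 in BPN/3J. In males it was 9.01 to 9.08 in BPH/2J, against 8.59 to 8.82 in BPN/3J. The strain difference was 0.33 in females and 0.31 in males (exact permutation p = 0.00216 each). In each sex 8 of 9 genes were called higher, against 8.01% of all probe sets in females and 7.48% in males. Females were higher than males by 0.30 in BPH/2J and 0.29 in BPN/3J (exact permutation p = 0.00216 each). In each strain 7 of 9 genes were called higher in females, against 15.6% of all probe sets in BPH/2J and 14.4% in BPN/3J. Whether the strain difference of this list takes part in the *Adra1b* difference of males was not tested. The sympathetic nerve and adrenal medulla lists, which mark the sources of noradrenaline and adrenaline, were not called between the strains by their means (exact permutation p from 0.284 to 0.987). Of 7 measured sympathetic nerve genes, *Uchl1* (0.27, adjusted p = 0.0299) and *Stmn2* (0.46, adjusted p = 0.0186) rose in BPH/2J females, against 8.01% of all probe sets. The other 5 were not called in females, and 0 of the list were called in males.

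**Figure D3:**
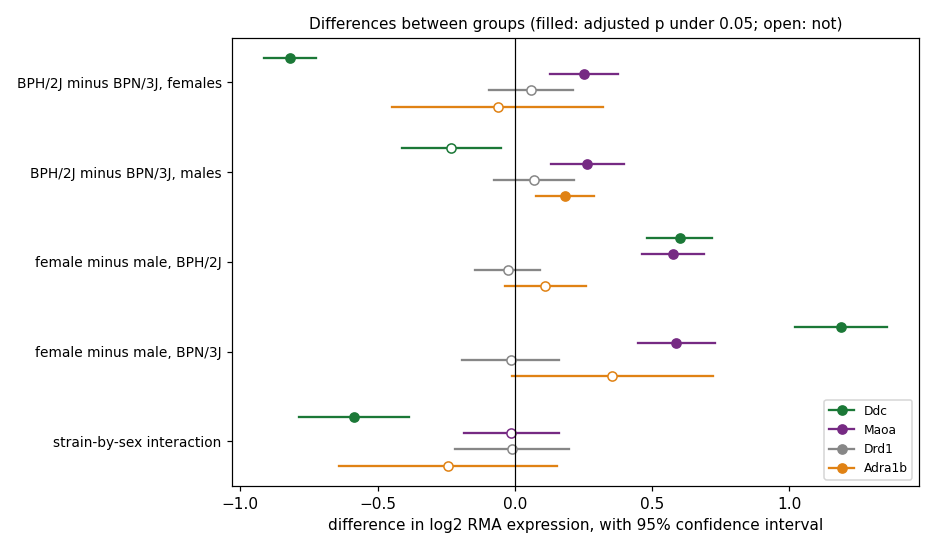
Log2 difference of each member in the 4 pairwise comparisons and the strain-by-sex interaction (limma estimate with its 95% interval, vertical line at 0, filled points called). *Ddc* is at -0.82 between strains in females and at -0.59 in the interaction, *Maoa* is above 0 in all 4 pairwise comparisons, and the intervals of *Drd1* all cross 0.

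Around the members stand 46 measured genes of the same pathway, of which 10 were called between the strains in at least 1 sex, against 21.5% of all probe sets, and 21 between the sexes in at least 1 strain, against 38.3% of all probe sets. For each list below, the shares of all probe sets were 8.01% higher and 6.48% lower in BPH/2J than in BPN/3J females, and 7.48% higher and 7.7% lower in BPH/2J than in BPN/3J males. Between the sexes they were 15.6% higher and 13.4% lower in females of BPH/2J, and 14.4% higher and 14.8% lower in females of BPN/3J. Of 9 genes of catecholamine synthesis and storage, 1 was called between the strains, *Qdpr*, which regenerates the tetrahydrobiopterin that tyrosine hydroxylase consumes. It rose in BPH/2J mice of both sexes, by 0.25 in females (standard error 0.0493, adjusted p = 0.00326) and 0.35 in males (standard error 0.0381, adjusted p = 2.42e-05). *Slc18a1*, the vesicular monoamine transporter of chromaffin cells, had the largest called sex difference of the list, in which 0 genes were higher and 3 lower in BPH/2J females, and 0 higher and 2 lower in BPN/3J females (1 lower without BPN/3J female arrays 2 and 5). Its BPH/2J values were 10.58 to 10.82 in females, against 11.25 to 11.41 in males. Its BPN/3J values were 10.69 to 10.82 in females, against 11.36 to 11.61 in males, so that the sexes did not overlap. It fell by 0.64 in BPH/2J females (adjusted p = 3.16e-07) and by 0.70 in BPN/3J females (adjusted p = 2.01e-07) relative to males. *Th*, *Dbh* and *Pnmt*, whose enzymes make L-DOPA, noradrenaline and adrenaline, were not called in any comparison and belong to the adrenal medulla list as well. The mean of that list spanned 6.63 to 8.65 in females of BPH/2J, against 6.70 to 8.62 in those of BPN/3J. Among males it spanned 6.88 to 8.14 in BPH/2J, against 6.70 to 8.23 in BPN/3J. *Th*, tyrosine hydroxylase, had an SD of 1.15 in BPH/2J females, 1.06 in BPN/3J females, 0.546 in BPH/2J males and 0.85 in BPN/3J males.

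Of 7 measured genes of catecholamine breakdown and uptake, 0 rose and 2 fell in BPH/2J females, and 0 rose and 1 fell in BPH/2J males. Without BPN/3J female arrays 2 and 5, 1 rose and 2 fell in BPH/2J females, as *Maob* was then called (0.47, adjusted p = 0.0396, against -0.20 with them). Between the sexes 2 were higher and 2 lower in BPH/2J females, and 1 higher and 2 lower in BPN/3J females. *Slc22a2*, the organic cation transporter through which tubule cells take up dopamine and other cations from blood, was 12.07 to 12.22 in BPH/2J females, against 12.35 to 12.51 in BPN/3J females. It was 12.96 to 13.11 in BPH/2J males, against 12.89 to 13.04 in BPN/3J males. The strain difference was called in females (-0.32, standard error 0.0413, adjusted p = 0.000136) and its interaction with sex was -0.41 (standard error 0.0541, adjusted p = 5.69e-05). Females were lower than males in both strains, by 0.90 in BPH/2J (adjusted p = 2.71e-09) and 0.50 in BPN/3J (adjusted p = 1.38e-06). *Rnls*, which encodes renalase, a flavoprotein secreted by the kidney, fell by 0.30 in BPH/2J males (standard error 0.0627, adjusted p = 0.00489). In females it fell by 0.18 (adjusted p = 0.042), a call that 7 of 12 omissions of a single array ended. It was lower in females than in males by 0.49 in BPH/2J (adjusted p = 3.96e-06) and 0.61 in BPN/3J (adjusted p = 1.95e-05). *Maob*, the second monoamine oxidase, was higher in BPH/2J females than in BPH/2J males (0.43, standard error 0.102, adjusted p = 0.00564), a call lost when all 24 arrays shared 1 estimate of spread (adjusted p = 0.318). In BPN/3J females *Maob* was 9.62 and 9.87 on the hepatocyte-rich arrays 2 and 5 and 7.45 to 7.92 on the other 4. *Sult1a1*, a sulphotransferase of phenols and catecholamines, was 8.75 and 9.05 on those 2 arrays and 7.40 to 7.67 on the other 4 BPN/3J females, against 7.12 to 7.27 in BPN/3J males. Its sex difference in BPN/3J was 0.80 with these arrays (adjusted p = 0.0362) and 0.34 without them (adjusted p = 0.00114), and it lost its call with quantile normalisation (0.75, adjusted p = 0.0505).

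Of the other receptors, *Drd3*, an inhibitory dopamine receptor, was higher in BPH/2J females than in BPH/2J males (0.41, standard error 0.0918, adjusted p = 0.00397). Its levels were 6.02 to 6.55 in BPH/2J females, against 5.55 to 5.90 in BPH/2J males, without overlap. Its probe set is a dim one, under the 40th percentile of mean level over all probe sets. *Drd2*, *Drd4*, *Drd5* and *Adra2c* were not called in any of the 5 comparisons, and other adrenoceptors outside the members were not analysed here.

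Among 20 genes of receptor coupling and desensitisation, 1 rose and 4 fell in BPH/2J females, and 1 rose and 3 fell in BPH/2J males. In females 3 rose and 4 fell with quantile normalisation, with eBayes trend and robust settings, and with 1 fit to all 24 arrays. Without BPN/3J female arrays 2 and 5, 1 rose and 2 fell in BPH/2J females, as *Adcy7* (-0.19, adjusted p = 0.0527) and *Rgs4* (-0.31, adjusted p = 0.0555) lost their calls. In males 1 rose and 1 fell once arrays were set to a common median, as *Gnaq* (-0.11, adjusted p = 0.0687) and *Adcy7* (-0.18, adjusted p = 0.0526) lost their calls. Between the sexes 6 were higher and 2 lower in females of BPH/2J, and 8 higher and 2 lower in females of BPN/3J (8 and 1 without those arrays). The median gene of the list was 0.07 higher in BPH/2J females than in BPH/2J males and 0.10 higher in BPN/3J females than in BPN/3J males, while the median of all probe sets was -0.003 in BPH/2J and -0.02 in BPN/3J. *Arrb1*, β-arrestin 1, which uncouples activated receptors from their G proteins, moved in opposite directions with strain in the sexes. Its female values were 10.28 to 10.43 in BPH/2J, against 10.40 to 10.60 in BPN/3J. Its male values were 10.40 to 10.61 in BPH/2J, against 9.98 to 10.21 in BPN/3J. The BPN/3J males stood below the other 3 groups without overlap. The strain difference was -0.17 in females (standard error 0.045, adjusted p = 0.0245) and 0.38 in males (standard error 0.0505, adjusted p = 0.000141), and its interaction with sex was -0.55 (standard error 0.0658, adjusted p = 1.54e-05). The female call was lost on 5 of 12 omissions of a single array (adjusted p up to 0.0539), whereas the male call and the interaction were kept on every omission.

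*Rgs2*, a regulator that limits Gq signalling and is tied to blood pressure in mice, was higher in females of both strains, by 0.75 in BPH/2J (standard error 0.0904, adjusted p = 3.5e-05) and 0.64 in BPN/3J (standard error 0.0754, adjusted p = 2.92e-05). *Adcy6*, an adenylyl cyclase of the tubule, was higher in females by 0.57 in BPH/2J (adjusted p = 3.76e-06) and 0.47 in BPN/3J (adjusted p = 5.6e-06). *Grk3*, a receptor kinase, was higher in females by 0.56 in BPH/2J (adjusted p = 7.61e-06) and 0.31 in BPN/3J (adjusted p = 0.000347). *Gnai1*, an inhibitory G protein subunit, was lower in females by 0.29 in BPH/2J (adjusted p = 1.38e-05) and 0.25 in BPN/3J (adjusted p = 0.000391). None of the 4 was called between the strains except *Grk3*, which rose by 0.21 in BPH/2J females (adjusted p = 0.00375). *Pde4d*, a phosphodiesterase of cyclic AMP, fell by 0.30 in BPH/2J females (adjusted p = 0.000523).

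Of 5 transport genes on which dopamine or noradrenaline act in the tubule, *Slc12a3*, the thiazide-sensitive sodium chloride cotransporter of the distal convoluted tubule, was called in all 4 pairwise comparisons. It fell in BPH/2J mice by 0.22 in females (standard error 0.0455, adjusted p = 0.00546) and 0.33 in males (standard error 0.0557, adjusted p = 0.00101). It was higher in females than in males by 0.38 in BPH/2J (adjusted p = 0.00025) and 0.27 in BPN/3J (adjusted p = 0.000253). *Slc34a1*, the phosphate cotransporter of the proximal tubule, was lower in BPH/2J females than in BPH/2J males by 0.11 (adjusted p = 0.0114), and *Slc9a3*, the sodium-hydrogen exchanger of the same segment, was lower in BPN/3J females than in BPN/3J males by 0.16 (adjusted p = 0.00224).

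**Figure D4:**
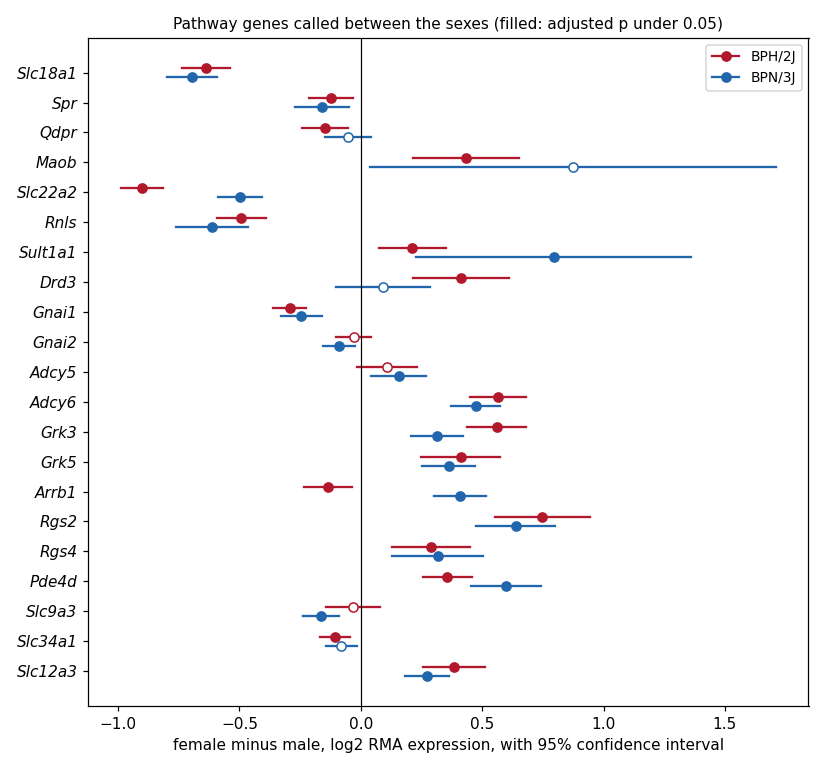
Female-minus-male log2 difference of the pathway genes called between the sexes in at least 1 strain, in BPH/2J and BPN/3J (limma estimates with 95% intervals, vertical line at 0, filled points called). *Rgs2* and *Adcy6* lie to the female-higher side in both strains, *Slc22a2*, *Slc18a1* and *Rnls* to the male-higher side, and *Arrb1* lies at -0.14 in BPH/2J and 0.41 in BPN/3J.

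As a description, the genes most like each member over the 24 arrays were sought by Pearson's r, which here mixes differences between groups with the spread within them. For *Ddc* they were *Iqgap2* (r = 0.967), *Akr1c19* (r = 0.961) and *Stra6* (r = 0.957), and within groups the r of these was 0.434 to 0.563. For *Maoa* they were *Gsto1* (r = 0.963), *Ggh* (r = 0.953) and *Hadhb* (r = 0.951), with 0.362 to 0.526 within groups. The likeness of these genes to *Ddc* and *Maoa* lay mostly in the group means. For *Adra1b* they were *Sdr42e1* (r = 0.944), *Maob* (r = 0.917) and *Hsd3b7* (r = 0.896), with 0.879 to 0.924 within groups, where the hepatocyte-rich arrays 2 and 5 of the BPN/3J females share in every value. For *Drd1*, which had no called difference between groups, the highest r was 0.727 over the 24 arrays, with *Tas1r2*.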

How the data were processed

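Kidney RNA of 24 mice was hybridised to Affymetrix Mouse Gene 1.0 ST arrays, 1 array and 1 mouse per sample. The deposited table holds log2 expression after RMA normalisation by the authors, from 2.12 to 14.55. RMA corrects background and forces a common distribution on the arrays, which compresses differences of dim probe sets. No RMA version is given in the sources used. Values were used as deposited, with no filter or offset. Strain, sex and number came from the labels.

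Symbols came from the platform annotation: 21159 probe sets (73.3%) carried 1 symbol, 1881 several and 5813 none, and only the first kind was named. Sequences and gene positions came from RefSeq (GRCm38.p6), and motifs were chosen with the sequences seen. Members and gene lists were chosen with earlier results of these data known. Named genes were the members, those of the pathway lists called in any comparison, with up to 4 values a list, and the 3 genes most like each member. Outside that rule, the uncalled pathway genes *Th*, *Dbh*, *Pnmt*, *Drd2*, *Drd4*, *Drd5* and *Adra2c* were named. So were *Uchl1*, *Stmn2* and *Slc7a13* of the marker lists.

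Each comparison of 2 groups was fitted on its 12 arrays, and the strain-by-sex interaction on all 24, by limma 3.58.1 in R 4.3.3, tested on simulated data first, with p-values Benjamini-Hochberg adjusted over all 28853 probe sets and called under 0.05. The methods' t-test and Bonferroni threshold were alternatives. Marker list means were compared by exact permutation over the 924 regroupings of 6 arrays against 6. The other alternatives were a 1.5-fold change in addition, no probe sets under the 40th percentile, probe sets with 1 symbol only, a common median, quantile normalisation, eBayes with trend and robust settings, 1 fit to all arrays, the replicate number as a block, the hepatocyte and adrenal cortex means as covariates, leaving out BPN/3J female arrays 2 and 5, and leaving out each array. Figures used Python 3.11.15 and matplotlib 3.10.9.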

Additional observations from a re-analysis of the deposited data

Results flagged for a closer look

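The strain differences of 3 genes depended on sex by the interaction test over all 24 arrays. The difference between the strain effects, females minus males, was -0.59 for *Ddc*, -0.41 for *Slc22a2* and -0.55 for *Arrb1* on the log2 scale.

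Some arrays stood far from the other 5 of their group by Dixon's test. Of 148 groups tested, 11 had such an array, and chance gives about 1 in 20. Among the members it was *Drd1* in BPN/3J female array 5, at 6.36 against 6.65 in the nearest array. Among pathway genes these were *Rnls* in BPH/2J male array 2 (8.75, nearest 8.67), *Pde4d* in BPN/3J female array 6 (9.90, nearest 9.74) and BPN/3J male array 1 (9.42, nearest 9.16), and *Spr* in BPH/2J male array 1 (9.73, nearest 9.85). The others were *Drd3* in BPH/2J female array 6 (6.55, nearest 6.19), *Gnai2* in BPH/2J female array 1 (12.10, nearest 12.03) and *Adcy5* in BPN/3J female array 2 (6.88, nearest 6.99). Among marker lists the mean of vascular smooth muscle and pericyte genes was 9.24 in BPH/2J female array 6 (nearest 9.34). In BPH/2J male array 3 the sympathetic nerve mean was 7.04 (nearest 6.68) and the adipocyte mean 8.81 (nearest 8.41).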

How the results depend on the processing

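No called member value changed sign under any alternative. Of 548 recomputed values of members, 504 kept their direction and their side of the threshold, 15 lost a call, 5 gained one and 24 changed sign, all of these in differences that were not called. Without BPN/3J female arrays 2 and 5 the strain difference in females was -0.0143 for *Drd1* and 0.21 for *Adra1b*, the sex difference of *Drd1* in BPN/3J 0.0587 and the interaction of *Adra1b* 0.0329. With the covariates the strain difference of *Adra1b* in females was 0.0652 and the sex difference of *Drd1* in BPN/3J 0.0102, and with quantile normalisation the interaction of *Maoa* was 0.0127. Leaving out 1 array gave -6e-04 to 0.0912 for *Drd1* and -0.1471 to 0.0803 for *Adra1b* between the strains in females, -0.05 to 0.0068 for *Drd1* between the sexes of BPH/2J, -0.0551 to 0.045 in BPN/3J, and interactions of -0.0415 to 0.0279 for *Maoa* and -0.0708 to 0.0293 for *Drd1*. The calls of *Ddc* in females and between the sexes of BPN/3J were kept under every alternative run. At the Bonferroni threshold 1 member stayed called between the strains in females, 0 in males and 0 in the interaction (*Ddc* -0.59, adjusted p = 0.102), as *Maoa* (0.25 in females, 0.26 in males) and *Adra1b* (0.18 in males) lost their calls. The same members were lost with the t-test of the methods at that threshold, where 1 member was called in females, 0 in males and 1 between the sexes of each strain (*Ddc* 0.60 in BPH/2J, adjusted p = 0.753, and *Maoa* 0.59 in BPN/3J, adjusted p = 0.158, lost). With 1.5-fold in addition, 1 member was called in females, 0 in males and 1 between the sexes of BPH/2J (*Maoa* 0.58 lost). A fit to all 24 arrays called *Ddc* in males (-0.23) and *Adra1b* between the sexes of BPN/3J (0.36, adjusted p = 0.0484) and lost *Adra1b* in males (0.18). The hepatocyte and adrenal cortex covariates called *Ddc* in males (-0.23) and *Adra1b* between the sexes of BPN/3J (0.35, adjusted p = 0.0272). Leaving out 1 array gave 1 to 3 members in males, -0.27 to -0.18 for *Ddc* in males and 0.16 to 0.21 for *Adra1b* in males. Over all probe sets, calls numbered 4180 in females, 4381 in males, 8349 between the sexes of BPH/2J, 8424 in BPN/3J and 508 in the interaction. At the Bonferroni threshold these were 681, 740, 1361, 1367 and 104, with the methods' t-test at that threshold 398, 447, 811 and 833, and with 1.5-fold in addition 655, 720, 853, 1014 and 170.

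Of 53 calls of pathway genes, the weakest were lost when 1 array was left out: *Gnaq* and *Adcy7* in males, *Rgs4* between the strains, *Spr* and *Sult1a1* between the sexes, *Gnai2* and *Adcy5* between the sexes of BPN/3J, *Arrb1* between the sexes of BPH/2J, and *Rnls* and *Arrb1* between the strains in females. The replicate numbers were not taken to pair the arrays, since not every same-numbered pair correlated above 0.1: 4, 0, 3 and 3 of 6 pairs did in the 4 pairwise comparisons (range -0.567 to 0.444), and 6, 0, 3 and 4 of 12 arrays correlated best with their own number. With the replicate number as a block, 11 of the 53 pathway calls were lost (*Rnls*, *Arrb1* and *Rgs4* between the strains in females, *Gnaq*, *Adcy7* and *Rgs4* in males, *Spr*, *Sult1a1*, *Arrb1* and *Slc34a1* between the sexes of BPH/2J, and *Gnai2* in BPN/3J), calls over all probe sets numbered 3590 in females, 3498 in males, 7322 and 7912 between the sexes of BPH/2J and of BPN/3J, and 486 in the interaction, and no member call changed (*Ddc* in females -0.82, adjusted p = 3.98e-05, and interaction adjusted p = 0.00595). Neither scaling moved the median of all probe sets by over 0.1. The 6 arrays of each group limit how small a difference could be called.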
